A study of Schizosaccharomyces pombe with 8 samples.

Results

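This section describes 84 fission yeast genes of the kinetochore, the mitotic spindle and anaphase, followed through a heat shock and its recovery in 2 strains. Genes were taken by name alone: a probe set belonged when its annotated Schizosaccharomyces pombe symbol had the form of the mis, fta, sim, spc, dad, cnp, klp, cut, apc, bub, mad or alp families, or was dam1, duo1, ask1, ndc80, nuf2, mal2, slp1, psc3, psm1, psm3, nda2 or nda3, while cut6, cut11 and cut15 were left out. The 84 probe sets stood for 84 of the 2892 S. pombe genes tested, and all 84 passed the filter on low signals. Of the 84 genes, 5 were set apart as known for other work. They were alp5 (an actin-related protein), alp13 (a subunit of a histone deacetylase complex), mis3 (which acts in ribosomal RNA processing), and spc2 and spc3 (named for signal peptidase subunits). The gene listed as fta5 has the newer symbol pfl8 in the gene table used here, and its role below rests on the older symbol. For 6 genes whose symbols fit the rule (cnp20, mis19, mis20, spc1, dad4 and spc19) the annotation paired no probe set, and they were not analysed here.

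In mitosis each chromosome is held to the spindle by a kinetochore, a protein assembly built on centromeric nucleosomes that carry the histone H3 variant CENP-A. Inner kinetochore proteins sit on that chromatin, the Mis12, Spc7 and Ndc80 complexes reach out to microtubules, and in yeasts the DASH complex couples the kinetochore to microtubule ends. The spindle checkpoint, made of the Mad and Bub proteins, holds back the activator Slp1 until chromosomes are attached. The anaphase-promoting complex with Slp1 then marks the securin Cut2 for destruction, which frees the separase Cut1 to open cohesin rings, and many of these parts were first found in fission yeast as cut mutants, in which the septum cuts through an undivided nucleus.

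The arrays compared an opi10- strain with an opi10+ strain, called by the state of the opi10 gene, whose human relative Hikeshi carries HSP70 chaperones into the nucleus under heat stress. Cells of both strains, in mid-log growth at 30C in liquid Edinburgh Minimal Medium, were sampled before heat, at the end of 1 h at 43C, and 1 h and 3 h into recovery at 30C. Each strain and condition gave 1 array, 8 in all, on which biotinylated cRNA was hybridised, made from total RNA with a 3'-primed labelling kit. The labels do not give how the opi10- allele was made, nor which arrays share a culture, and p-values therefore reflect only the spread between these arrays, which may be technical. With 1 array for each strain and condition, that spread is how far the strains differ in their response to the conditions. No probe set was annotated as opi10, so its level does not check the strain labels here.

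Values are array signals after quantile normalization over S. pombe probe sets, which makes each change relative to the other genes on the array. As deposited, S. pombe probe sets had a median signal of 517 and 493 at 43C in opi10- and opi10+, and between 922 and 1096 on the 6 other arrays. Hence the median log2 change of all tested genes at 43C was -0.91 on the deposited scale and -0.06 after quantile normalization. At 3 h of recovery these medians were 0.11 and -0.03. A gene that fell by less than the deposited median can be higher on one scale and lower on the other, and genes whose call differs between the scales are named. Changes are log2(signal + 16) values from a limma fit with terms for condition and strain over all 8 arrays, given ± SE with 2 arrays per condition, and a gene is said to have risen or fallen when its p-value, adjusted by Benjamini-Hochberg over all 2892 genes, was under 0.05. The 31 probe sets of budding yeast, Saccharomyces cerevisiae, that carry a member's symbol had mean signals of at most 16.3, while the median signal of the tested S. pombe genes was 854. In RNA from a whole culture, fewer cells in a stage of the cycle and less RNA per cell cannot be told apart.

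At 43C the genes moved both ways. After normalization 25 of the 84 rose and 35 fell. Of all tested genes 32.8% rose and 39.8% fell, close to the members' 29.8% and 41.7%. By at least 2-fold, 9 members rose and 13 fell, where the shares of all genes were 11.9% and 11.3%. On the deposited scale 7 members were higher and 67 lower, against 11.2% and 73.7% of all genes. The 35 falls were also called as deposited, which the lower median of all genes on that scale (-0.91) favours. With median centring, though, apc13 was 0.03 and not called and duo1 was higher (0.39, adjusted p = 0.0311). Of the 25 rises, 7 were higher on both scales, namely cnp1, cnp3, cut3, cut9, dad5, psm1 and alp41, 9 were lower as deposited (alp16, apc14, bub1, dad2, klp2, mad1, mis12, nuf2 and sim4), and 9 passed the test on neither side as deposited (alp11, cut8, cut12, fta3, klp9, mis6, psm3, spc3 and spc25). Of the 24 genes not called after normalization, all but apc15 were lower as deposited, namely alp4, alp7, alp31, apc11, bub3, cut4, cut14, dad1, dad3, fta1, fta6, klp5, klp8, mad2, mal2, mis3, mis17, mis18, psc3, sim3, spc7, spc24 and spc34, with changes between -1.58 and -0.55. Of the 60 calls, 48 were also made without each of the 8 arrays in turn, and those of cut2, dam1, duo1, fta2, fta3, fta4, fta7, mad1, mis4, mis6, slp1 and spc2 were not (adjusted p up to 0.251). The plot of both scales shows how far the choice matters.

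**Figure D1:**
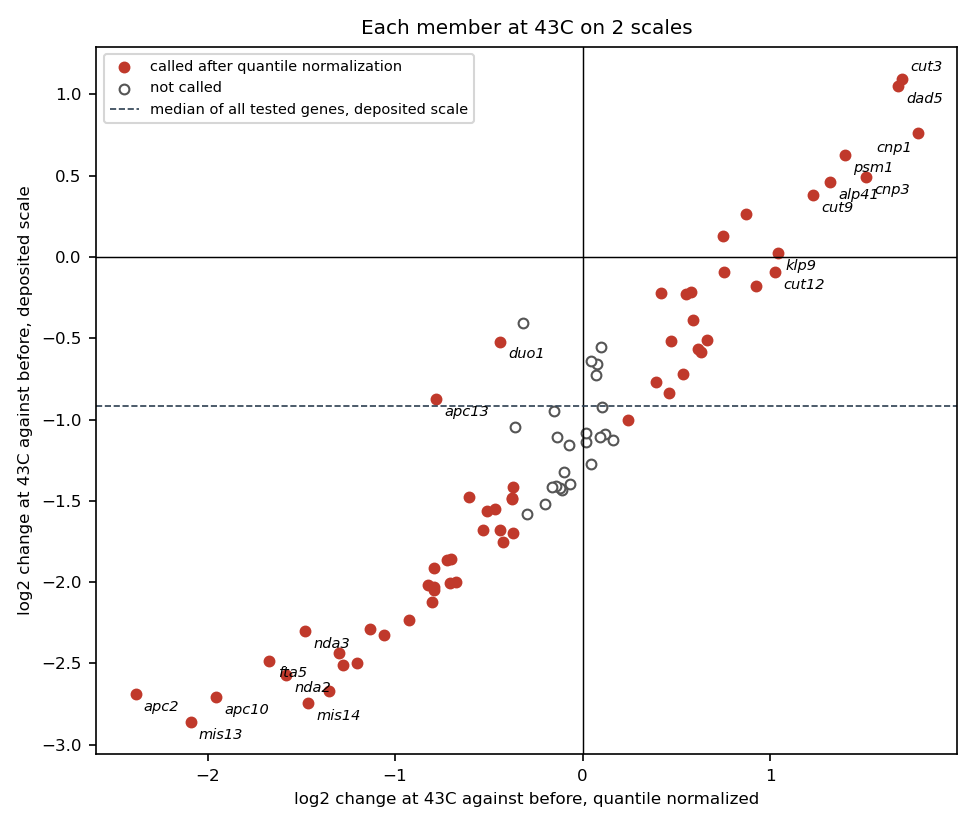
Each point is 1 of the 84 genes, with its log2 change at 43C against before after quantile normalization on the x axis and on the deposited scale on the y axis. Filled points passed the limma test after quantile normalization; the dashed line is the median of all tested genes on the deposited scale, -0.91. The 7 genes at the upper right were higher on both scales, and apc2, mis13 and apc10 lie lowest on the x axis.

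After 1 h of recovery 22 members were above and 27 below their level before heat, against 25.5% and 27.2% of all genes. Changes of at least 2-fold were fewer, 4 up and 4 down, where 3.35% and 3.25% of all genes passed. On the deposited scale 19 were higher and 17 lower, against 24.8% and 23.2% of all genes, and all of them were also called after normalization. Not called as deposited were the rises of cut1, cut14 and spc34 and the falls of alp5, alp7, alp13, alp14, apc2, fta2, mis13, mis18, ndc80 and sim3. Only 17 of the 49 calls were made without each array in turn, 8 rises (alp16, bub3, cnp3, cut20, dad5, fta3, klp9 and sim4) and 9 falls (alp11, alp31, klp8, mis14, mis16, nda2, nda3, slp1 and spc24). After 3 h, 19 were above and 20 below, against 19.6% and 22.2% of all genes, and by at least 2-fold 2 were above and 1 below, against 2.87% and 1.28%. As deposited 35 were higher and 7 lower at 3 h, against 26.8% and 11.4% of all genes. The 19 rises were called on both scales, while 13 of the 20 falls were not called as deposited (alp7, alp14, fta2, fta5, fta7, klp2, mad1, mad3, mis15, mis17, psc3, sim3 and spc7). The 16 others that were higher as deposited were alp5, apc5, apc10, apc13, cut2, cut12, cut20, dad1, dad2, duo1, fta1, fta4, klp3, klp6, mal2 and spc2. Without each array in turn 11 of the 39 calls at 3 h remained, 4 rises (alp4, cut9, dad5 and klp9) and 7 falls (alp1, alp7, alp31, fta5, mis3, mis14 and nda2).

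Between the steps, 33 members rose and 27 fell in the first hour after 43C, where 35% and 30.4% of all genes did, and 40 of these 60 calls were made without each array in turn. As deposited 72 were higher and 3 lower in that step, against 78.6% and 7.3% of all genes, in which the median of all genes moved by 0.92 on that scale. From 1 h to 3 h of recovery 27 rose and 20 fell, against 23.2% and 23.3% of all genes, with 34 higher and 6 lower as deposited, against 27.3% and 13.7%. Just 8 of those 47 calls (alp11, cut9 and mis16 higher, alp1, cnp3, fta5, mis3 and sim4 lower) were made without each array in turn.

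Many calls made at 43C were not made in recovery. Of the 25 that rose at 43C, 11 were still higher at 1 h, 3 were lower and 11 were not called. At 3 h these counts were 10, 2 and 13. Of the 35 that fell, 5 were higher at 1 h, 16 were still lower and 14 were not called, and at 3 h the counts were 2, 11 and 22. Higher in all 3 conditions were alp16, cnp3, dad5, klp9, mis6 and psm1, and lower in all 3 were alp14, fta2, mad3, mis14, nda2, nda3 and slp1. On the deposited scale klp9 and mis6 were not called at 43C and alp16 was lower there. Of those lower in all 3, alp14 and fta2 were not called as deposited at 1 h and 3 h, nor mad3 at 3 h. In all 3 conditions only dad5 and klp9 among the higher genes, and mis14 and nda2 among the lower, were also called without each array in turn. Never called after normalization were apc15, dad1 and mal2, of which dad1 (-0.66) and mal2 (-1.16) were lower as deposited at 43C and higher at 3 h. These comparisons share the arrays from before heat, so their calls are not independent of each other. Matching counts over all tested genes were not made, so whether calls last longer or shorter in the members than elsewhere is not shown.

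**Figure D2:**
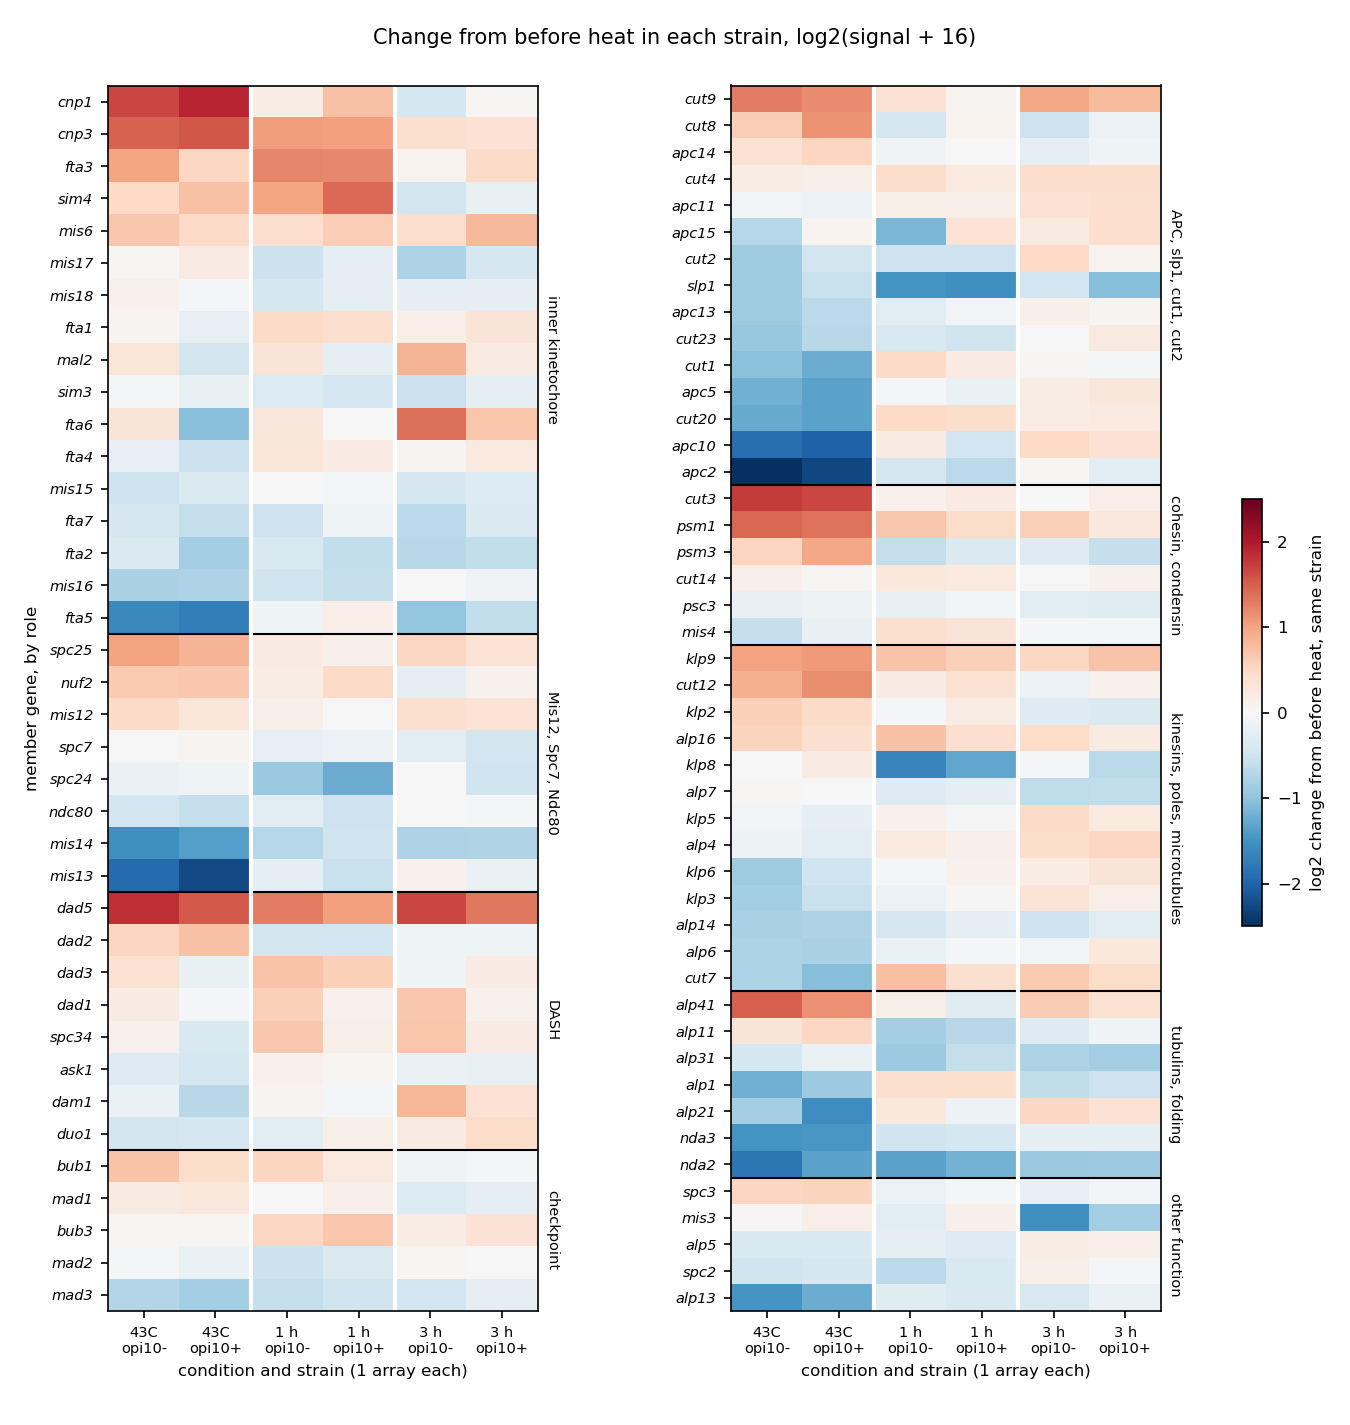
Rows are the 84 genes grouped by role, sorted within a role by the change at 43C, and columns are the 3 later conditions with opi10- left of opi10+. Colour gives the log2 change from before heat within the same strain, from 1 array against 1 array. The columns of both strains look alike within a condition, and the strongest colours lie at 43C.

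In the role accounts below, 4 signals for a strain stand in the order before heat, 43C, 1 h of recovery and 3 h of recovery. The counts of each role at 43C stand against 32.8% of all genes that rose and 39.8% that fell. As deposited these shares were 11.2% higher and 73.7% lower. No role was tested against them.

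Among the 17 genes of CENP-A, its loading and the inner kinetochore, 5 rose and 6 fell at 43C, with a median change of -0.07. As deposited 2 were higher and 13 lower. The CENP-A gene cnp1 (SPBC1105.17) had signals of 162, 554, 188 and 115 in opi10- and 119, 486, 208 and 122 in opi10+. Both 43C arrays stood far above the 6 others, and the rise was 1.79 ± 0.14 log2, or 3.45-fold (adjusted p = 7.81e-05, limma), and 0.76 as deposited. At 1 h the change was 0.46, a call lost without either 1 h array or the opi10+ array before heat (adjusted p from 0.0522 to 0.218), and at 3 h it was not called (-0.20). CENP-C, encoded by cnp3 (SPBC1861.01C), binds CENP-A nucleosomes and links them to the outer kinetochore. Its signals were 197, 574, 426 and 267 in opi10- and 208, 644, 439 and 273 in opi10+. The 43C and 1 h arrays of both strains were all higher than any array before heat or at 3 h, with changes of 1.51 ± 0.08 at 43C and 1.04 ± 0.08 at 1 h (adjusted p = 0.000556). At 3 h cnp3 was still 0.39 above, though not once the opi10- array before heat or at 3 h was left out (adjusted p = 0.0507 and 0.0672).

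A pair of inner kinetochore genes peaked later, at 1 h. The CENP-H relative fta3 (SPBP8B7.12C) had signals of 1340, 2668, 3139 and 1415 in opi10- and 1422, 2035, 3284 and 1987 in opi10+. It was highest at 1 h in both strains, with a change of 1.21 ± 0.19 (adjusted p = 0.00284), against 0.75 at 43C, where the call was lost without the opi10- array (0.45, adjusted p = 0.0568) and on the deposited scale (0.13). For sim4 (SPBC18E5.03C), the CENP-K relative, they were 321, 458, 649 and 228 in opi10- and 333, 567, 913 and 291 in opi10+. All 4 arrays at 43C and 1 h exceeded the 4 others, and the change at 1 h was 1.20 ± 0.11 (adjusted p = 0.000723); its rise of 0.61 at 43C was -0.56 as deposited. From 1 h to 3 h sim4 fell by 1.52 on the log2 scale and fta3 by 0.93. Only the fall of sim4 among these was also called without each array in turn.

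The CENP-I relative mis6 (SPAC1687.20C) had signals of 66.6, 115, 94.2 and 94.9 in opi10- and 60.3, 90.8, 100.3 and 118 in opi10+. Its later values were all above those before heat, with changes of 0.58, 0.51 and 0.62 at 43C, 1 h and 3 h; the first was -0.22 as deposited, and each call was lost without 2, 4 and 3 of the arrays. These were, at 43C, the opi10- array at 43C and the opi10+ array before heat (adjusted p = 0.0615 and 0.0507), at 1 h the 4 arrays compared (0.0527 to 0.134), and at 3 h both arrays before heat and the opi10+ array at 3 h (0.0536 to 0.077). Another member of the Sim4 complex set, fta6 (SPAC11H11.05C), had 104, 134, 131 and 295 in opi10- and 118, 48.7, 119 and 201 in opi10+. At 43C the strains stood apart, and at 3 h both lay above their other arrays. The change at 3 h was 1.03 ± 0.30 (adjusted p = 0.0331), a call lost without the opi10- array before heat, either 1 h array or either 3 h array (adjusted p from 0.0562 to 0.197).

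The deepest fall in the inner kinetochore list at 43C was that of fta5 (SPAC1F8.06, newer symbol pfl8), placed in that list by its older symbol alone. It had signals of 267, 77.1, 245 and 129 in opi10- and 245, 62.2, 278 and 154 in opi10+. The 43C arrays were lowest and the 3 h arrays next lowest in both strains, with changes of -1.67 ± 0.13 at 43C (adjusted p = 8.2e-05), 0.03 at 1 h and -0.79 ± 0.13 at 3 h (-0.40 and not called as deposited). The CENP-P relative fta2 (SPAC1783.03) had 173, 131, 127 and 102 in opi10- and 152, 77.4, 94.2 and 93.6 in opi10+. Every later array lay below the same strain's array before heat, with changes of -0.60, -0.51 and -0.65, of which only the first was called as deposited. Each of the fta2 calls was lost without at least 1 array (adjusted p = 0.051 at 43C without the opi10+ array before heat, 0.103 to 0.131 at 1 h without that array or either 1 h array, and 0.0584 and 0.0907 at 3 h without that array or the opi10- array at 3 h). For fta7 (SPCC1235.07), the CENP-Q relative, the signals were 229, 167, 154 and 138 in opi10- and 189, 119, 175 and 143 in opi10+. It fell at 43C (-0.51) and at 3 h (-0.52, not called as deposited). Its calls were lost without the opi10- array before heat or the opi10+ array at 43C (adjusted p = 0.111 and 0.149), and at 3 h without any 1 of the 4 arrays compared (0.0589 to 0.202).

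The members that load CENP-A (mis16, mis18 and sim3) changed by less than 2-fold from before heat after normalization. The WD repeat protein gene mis16 (SPCC1672.10) fell by 0.79 at 43C (adjusted p = 0.000166) and by 0.55 at 1 h, and was -0.06 at 3 h. Its partner mis18 was 0.05 at 43C, and -0.64 as deposited. The CENP-A chaperone sim3 was -0.12 at 43C (-1.42 as deposited), -0.38 at 1 h and -0.39 at 3 h. Of the remaining constitutive genes mis15 fell by 0.44 at 43C, fta4 by 0.37 (lost without either 1 h array, either array before heat or the opi10+ array at 43C, adjusted p from 0.0648 to 0.251), and fta1, mal2 and mis17 were not called there (-0.07, -0.07 and 0.12, and as deposited -1.40, -1.16 and -1.09).

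The 8 genes of the Mis12, Spc7 and Ndc80 complexes, the part of the kinetochore that touches microtubules, gave 3 rises and 3 falls at 43C, and none was higher as deposited, while 7 were lower. The deepest falls were of partner subunits of the Mis12 complex. Signals of mis13 (SPBC409.09C) were 298, 66.6, 253 and 324 in opi10- and 287, 47.6, 189 and 254 in opi10+. Both 43C arrays were far below the 6 others, a change of -2.09 ± 0.11, or 4.26-fold lower (adjusted p = 1.93e-05), and at 3 h it was not called (-0.02). For mis14 (SPAC688.02C) they were 645, 211, 386 and 372 in opi10- and 587, 215, 412 and 344 in opi10+. It stayed low, at -1.46 ± 0.09 at 43C, -0.61 ± 0.09 at 1 h and -0.76 ± 0.09 at 3 h, all called on both scales and without each array in turn. The third subunit among the members, mis12 itself, was 0.39 at 43C and -0.77 as deposited.

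The 4 subunits of the Ndc80 complex did not share a course. At 43C spc25 rose (0.93 ± 0.08, -0.18 as deposited and not called) and nuf2 rose (0.67 ± 0.11, -0.51 as deposited), whereas ndc80 fell (-0.53 ± 0.09) and spc24 was not called (-0.14, and -1.11 as deposited). At 1 h spc24 (SPBC336.08) stood out, with signals of 153, 135, 72.8 and 152 in opi10- and 146, 134, 52.5 and 98.7 in opi10+. The 1 h array was the lowest of each strain, at -1.09 ± 0.14 (adjusted p = 0.0017). It was not called at 3 h (-0.26). The KNL1 relative spc7, which recruits checkpoint proteins, was 0.02 at 43C, -0.18 at 1 h and -0.37 at 3 h, and as deposited it was -1.14 at 43C.

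Of the 8 DASH complex genes 2 rose and 3 fell at 43C, with a median of -0.03. As deposited 1 was higher and 7 lower, with a median of -0.79. The largest rise was that of dad5 (SPCC417.02), with signals of 6.38, 63.8, 38.6 and 55.1 in opi10- and 5.76, 46.9, 28.1 and 38.6 in opi10+. It was near the background before heat, where the filter on low signals stood at 5.72, and higher on all 6 later arrays, with changes of 1.68 ± 0.10, 1.15 ± 0.10 and 1.50 ± 0.10 at 43C, 1 h and 3 h. All 3 calls held on both scales and without each array in turn, but the added 16 sets the size of a change from such low signals. Signals of dad2 (SPAC1805.07C) were 213, 316, 152 and 196 in opi10- and 179.7, 308, 125 and 165 in opi10+. It was highest at 43C and lowest at 1 h in both strains, with changes of 0.63 at 43C (-0.58 as deposited) and -0.46 at 1 h, the second lost without the opi10+ array at 1 h (adjusted p = 0.0577). The genes dad3 (SPAC14C4.16) and dam1 (SPAC589.08C) moved in recovery. For dad3 the signals were 151, 202, 258 and 141 in opi10- and 146, 127, 227 and 169 in opi10+, and its rise of 0.65 at 1 h was lost without any 1 of the 4 arrays compared (adjusted p from 0.0641 to 0.133). For dam1 they were 397, 353, 419 and 717 in opi10- and 425, 259, 409.6 and 549.7 in opi10+, and its rise of 0.59 at 3 h was not made without the opi10- array before heat or at 3 h (adjusted p = 0.109 and 0.124). The remaining members ask1, dad1, duo1 and spc34 lay between -0.44 and 0.08 at 43C. Signals of dad1 (SPAC16A10.05C) were 1168, 1345, 1778 and 1866 in opi10- and 1506, 1458, 1632 and 1629 in opi10+, and of spc34 (SPAC8C9.17C) 391, 421, 631 and 638 in opi10- and 513, 390.4, 569 and 593 in opi10+. Both were lower in opi10- before heat, and neither was called at 43C after normalization, while as deposited both were lower there (-0.66 and -1.41). The signals of duo1 were under 50 on all 8 arrays, at 25.8, 14.3, 18.4 and 32.7 in opi10- and 21.4, 12.1, 25.6 and 35.6 in opi10+.

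The 5 spindle checkpoint genes, which delay anaphase while kinetochores are unattached, gave 2 rises and 1 fall at 43C and were all lower as deposited. The kinase gene bub1 (SPCC1322.12C) had signals of 487, 809, 716 and 459 in opi10- and 568, 789, 671 and 549 in opi10+. It was highest at 43C in both strains (0.59 ± 0.11, -0.39 as deposited). Signals of its partner bub3 (SPAC23H3.08C) were 368, 377, 537 and 422 in opi10- and 334, 347, 548 and 435 in opi10+. Here the 1 h array was the highest of each strain, at 0.61 ± 0.09 (adjusted p = 0.00204), while at 43C it was 0.04, and -1.28 as deposited. The BubR1 relative mad3 (SPCC1795.01C) had 378, 222, 244 and 268 in opi10- and 344, 183, 239 and 288 in opi10+. All 6 later arrays were below both arrays before heat, with changes of -0.79 ± 0.10 at 43C, -0.55 at 1 h and -0.36 at 3 h. The 1 h call was lost without the opi10- array at 1 h (adjusted p = 0.0546), and the 3 h call without 5 of the arrays (0.0649 to 0.196: both before heat, both at 1 h and opi10- at 3 h) and as deposited (-0.07). Of the Mad1 and Mad2 pair, mad1 was 0.24 at 43C but lower as deposited, and mad2 was -0.10 at 43C (-1.32 as deposited) and fell by 0.45 at 1 h, a call lost without the opi10- array at 1 h (adjusted p = 0.0892).

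The anaphase-promoting complex with its activator, securin, separase and regulators had 15 genes, of which 3 rose and 9 fell at 43C, with a median change of -0.72. As deposited 1 was higher and 12 lower. The cullin-like catalytic subunit gene apc2 (SPBP23A10.04) had the largest fall of all 84 genes after normalization. Its signals were 183, 19.1, 132 and 186 in opi10- and 184, 25.6, 111 and 150.5 in opi10+. Both 43C arrays were under 50 and the 6 others above 100, a change of -2.38 ± 0.14, or 5.22-fold lower (adjusted p = 2.88e-05), followed by -0.54 at 1 h and -0.12 at 3 h. The 1 h call was not made without the opi10+ array before heat or either 1 h array (adjusted p from 0.0517 to 0.126). The substrate-binding subunit gene apc10 (SPBC1A4.01) had 258, 57.8, 303 and 373 in opi10- and 276, 56.1, 193 and 358 in opi10+. Both strains had their lowest value at 43C (-1.96 ± 0.17, adjusted p = 0.000108), and at 1 h and 3 h it was not called.

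Other core subunits fell with them. The Apc4 gene cut20 (SPAC19G12.01C) had signals of 322, 126, 459 and 370.3 in opi10- and 336, 123, 463 and 396 in opi10+. It was lowest at 43C and highest at 1 h in each strain, at -1.30 ± 0.08 and 0.47 ± 0.08. Further falls at 43C were those of apc5 (-1.28), the Apc8 gene cut23 (-0.82) and apc13 (-0.78, with signals under 50 on all arrays, and 0.03 and not called with median centring). The Apc1 gene cut4 and the RING subunit gene apc11 were not called at 43C (0.16 and -0.11, and -1.13 and -1.43 as deposited). The subunit gene apc14 rose at 43C after normalization and was -0.84 as deposited. Its signals before heat and at 43C were 283 and 373 in opi10- and 234 and 348 in opi10+. The Apc6 gene cut9 (SPAC6F12.15C) also rose. Its signals were 433, 1075, 561 and 858 in opi10- and 470, 1082, 494 and 828 in opi10+. Both 43C arrays and both 3 h arrays stood above the rest, with 1.23 ± 0.09 at 43C (adjusted p = 7.07e-05) and 0.88 ± 0.09 at 3 h, called on both scales and without each array in turn.

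The Cdc20-type activator slp1 (SPAC821.08C), through which the checkpoint acts, had signals of 917, 486, 317 and 657 in opi10- and 868, 586, 289.7 and 404 in opi10+. Every later array was below both arrays before heat, and the 1 h array was the lowest of each strain, at -1.51 ± 0.20, or 2.85-fold lower (adjusted p = 0.00178). This was the largest fall of the 84 genes at 1 h. At 43C slp1 was -0.72, a call lost without the opi10+ array before heat or the opi10- array at 43C (adjusted p = 0.0754 and 0.109). The change of -0.77 at 3 h was lost without either array before heat, either 1 h array or the opi10+ array at 3 h (0.0518 to 0.0927). Securin, cut2 (SPBC14C8.01C), had 458, 242, 314 and 652 in opi10- and 474, 339, 325 and 503 in opi10+. Its 43C and 1 h arrays were below the others in both strains (-0.67 and -0.52). The call at 43C was lost without either array before heat or the opi10- array at 43C (adjusted p from 0.0534 to 0.0816), and that at 1 h without any 1 of the 4 arrays compared (0.131 to 0.179). Separase, cut1 (SPCC5E4.04), had 1093, 526, 1525 and 1123 in opi10- and 1283, 536, 1480 and 1259 in opi10+. It was lowest at 43C (-1.13 ± 0.09, adjusted p = 9.41e-05) and highest at 1 h in both strains (0.34, not called as deposited, nor without the opi10- array before heat or either 1 h array, adjusted p from 0.0509 to 0.182). The gene cut8 (SPAC17C9.13C), which holds proteasomes in the nucleus, had 1460, 2248, 1094 and 1020 in opi10- and 1214, 2671, 1297 and 1090 in opi10+. It rose at 43C (0.87 ± 0.14, 0.26 and not called as deposited).

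**Figure D3:**
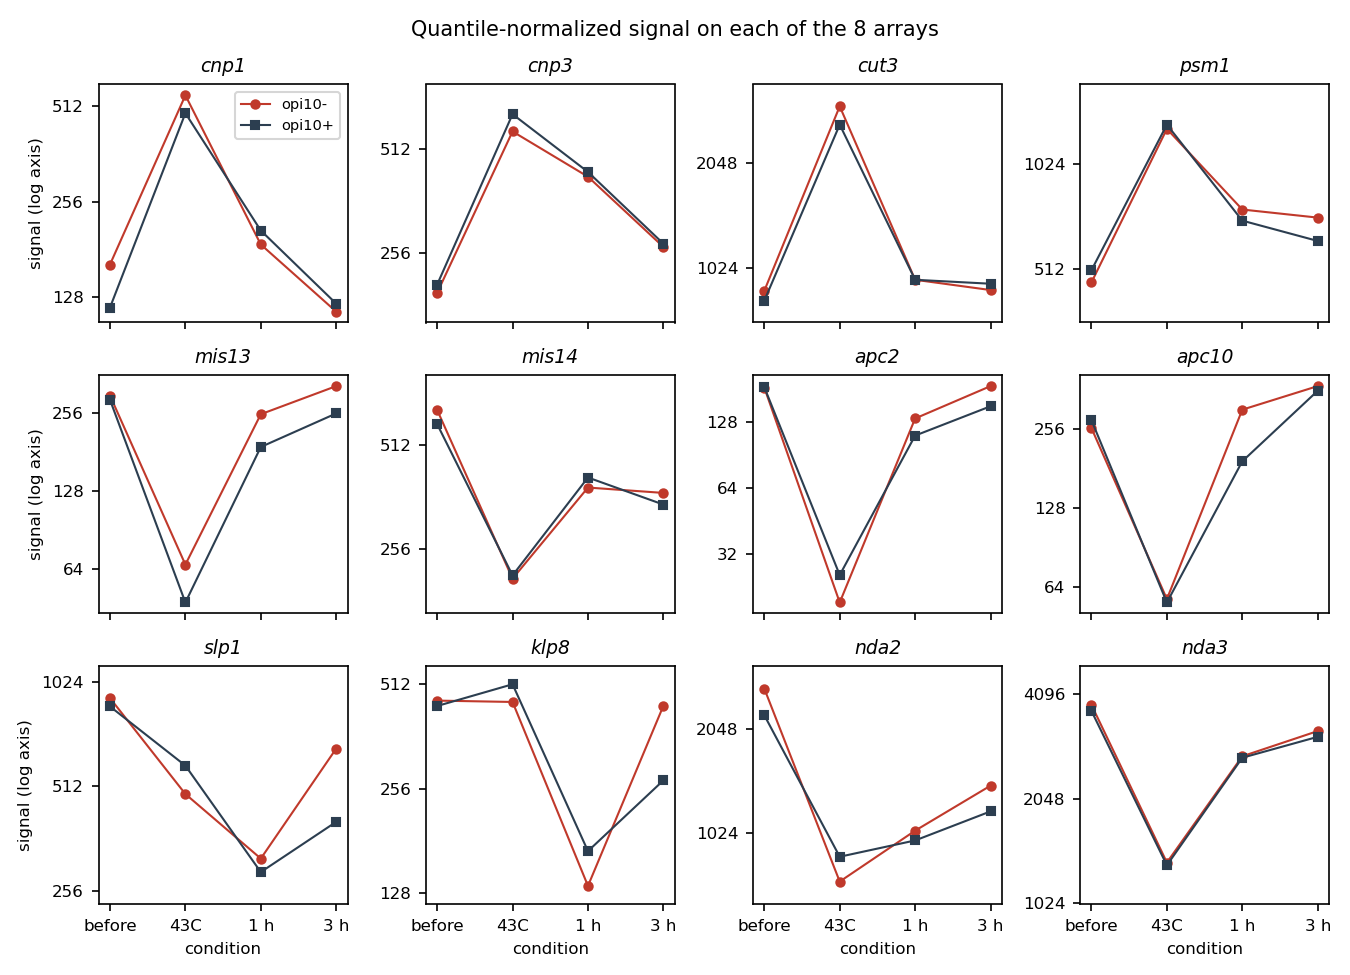
Each panel follows 1 gene through before heat, 43C, 1 h and 3 h of recovery (x axis), with the quantile-normalized signal of each array on a log axis (y axis), opi10- as circles and opi10+ as squares. In cnp1, cnp3, cut3 and psm1 the 43C array was the highest of each strain, in mis13, mis14, apc2, apc10, nda2 and nda3 it was the lowest, and in slp1 and klp8 the 1 h array was the lowest.

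Cohesin, which holds sister chromatids together, and condensin, which compacts them, gave 6 genes, of which 3 rose and 1 fell at 43C. As deposited 2 were higher and 3 lower. The condensin subunit gene cut3 (SPBC146.03C), of the SMC4 type, had signals of 881, 2989, 947 and 885 in opi10- and 825, 2647, 947 and 923 in opi10+. Both 43C arrays stood far above the 6 others, and the change was 1.70 ± 0.09, or 3.26-fold (adjusted p = 2.04e-05), and 1.09 as deposited. At 1 h and 3 h it was not called (0.15 and 0.08). Its SMC2-type partner cut14 (SPBP4H10.06C) was 0.07 at 43C, and -0.72 as deposited. For psm1 (SPBC29A10.04), the SMC1-type cohesin subunit, signals were 467, 1292, 757 and 718 in opi10- and 507, 1329, 704 and 615 in opi10+. All 6 later arrays were above both arrays before heat, at 1.40 ± 0.10, 0.57 and 0.44. The 1 h call was lost without the opi10- array at 1 h (adjusted p = 0.0501) and the 3 h call without the opi10- array before heat or at 3 h (0.0997 and 0.109).

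The SMC3-type partner psm3 (SPAC10F6.09C) had signals of 657, 959.5, 428 and 524 in opi10- and 546, 1085, 422 and 362 in opi10+. It too was highest at 43C in both strains (0.75 ± 0.16, -0.09 and not called as deposited), but at 1 h it lay below its level before heat (-0.48), a call lost without any 1 of the 4 arrays compared (adjusted p from 0.0864 to 0.24). The cohesin loader gene mis4 (SPAC31A2.05C) had 739, 494, 984 and 712 in opi10- and 784, 687, 979 and 759.8 in opi10+. It was lowest at 43C and highest at 1 h in both strains (-0.38 and 0.36). Those calls were lost without either array before heat or the opi10- array at 43C (adjusted p from 0.065 to 0.216), and at 1 h without any array but those at 43C (0.0701 to 0.293). The remaining cohesin subunit gene psc3 was -0.16 at 43C and -1.42 as deposited. The kleisin subunit gene rad21 is outside the name rule; its signals were 354, 2145, 305 and 321 in opi10- and 361, 1982, 398 and 229.7 in opi10+, a change of 2.48 at 43C.

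Among 13 genes of kinesins, the spindle pole body and microtubule factors, 4 rose and 5 fell at 43C, and as deposited none was higher and 11 were lower. The kinesin-6 gene klp9 (SPBC15D4.01C), which drives anaphase spindle elongation, had signals of 345, 709.5, 578 and 500.5 in opi10- and 356, 765, 544 and 589 in opi10+. All 6 later arrays were above both arrays before heat, at 1.04 ± 0.10, 0.66 ± 0.10 and 0.61 ± 0.10, and without each array in turn all 3 calls remained. As deposited the change at 43C was 0.02 and not called. The kinesin-5 gene cut7 (SPAC25G10.07C), which pushes spindle poles apart, had 473, 267, 807 and 754 in opi10- and 568, 263, 755 and 783 in opi10+. It was lowest at 43C (-0.93 ± 0.10) and above its starting level on all 4 recovery arrays (0.58 and 0.55). The recovery calls were lost without the opi10- array at 1 h (adjusted p = 0.0516) and at 3 h (0.0511).

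The kinesin gene klp8 (SPAC144.14) changed at 1 h. It had signals of 458, 454, 134 and 443 in opi10- and 442, 511, 169 and 270.2 in opi10+. Both 1 h arrays were far below the 6 others, at -1.48 ± 0.22, or 2.79-fold lower (adjusted p = 0.00254), while at 43C the change was 0.09 (-1.11 as deposited). The paired kinesin-8 genes klp5 and klp6, which shorten microtubules, were -0.15 and -0.70 at 43C, the second a fall, and as deposited klp5 too was lower (-0.95). The minus-end kinesin gene klp2 was 0.54 at 43C (-0.72 as deposited), and klp3 fell by 0.71. The spindle pole body gene cut12 (SPBC649.05) rose at 43C (1.03 ± 0.09, -0.09 and not called as deposited).

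Subunits of the gamma-tubulin complex, which nucleates microtubules, differed in sign. The gene alp16 (SPCC4G3.19) had signals of 495, 732, 828 and 685 in opi10- and 606, 801, 820.2 and 710.1 in opi10+. All 6 later arrays were above both arrays before heat, with 0.47 at 43C (-0.51 as deposited), 0.57 at 1 h and 0.34 at 3 h, the last lost without the opi10- array before heat, either 1 h array or either 3 h array (adjusted p from 0.0513 to 0.17). Its partners alp6 and alp4 were -0.80 and -0.20 at 43C, the first a fall and the second not called (-1.52 as deposited), and at 3 h alp4 was 0.49. The TACC-type gene alp7 (SPAC890.02C) had 191, 195, 149 and 117 in opi10- and 185, 186, 157 and 115 in opi10+. Its 3 h arrays were the lowest of each strain (-0.63 ± 0.08, -0.13 and not called as deposited). The microtubule polymerase gene alp14 (SPCC895.07), whose product works with Alp7, had 845, 472, 629.8 and 582 in opi10- and 681, 394, 575 and 568 in opi10+. The 43C arrays were the lowest of each strain (-0.79 ± 0.09, adjusted p = 0.000367). Its calls at 1 h and 3 h (-0.33 and -0.39) were made neither as deposited nor without some arrays, those of opi10- before heat and either array at 1 h for the first (adjusted p from 0.0971 to 0.162) and those of opi10- before heat and at 3 h for the second (0.105 and 0.117).

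Of 7 genes of tubulins and tubulin folding 2 rose and 4 fell at 43C, with a median change of -1.06. As deposited 1 was higher and 5 lower. The alpha-tubulin gene nda2 (SPBC16A3.15C) had signals of 2671, 744, 1042 and 1404 in opi10- and 2239, 877, 977 and 1184 in opi10+. All 6 later arrays were below both arrays before heat, at -1.58 ± 0.13, -1.26 ± 0.13 and -0.92 ± 0.13. For nda3 (SPBC26H8.07C), the single beta-tubulin gene, they were 3810, 1341, 2711 and 3204 in opi10- and 3660, 1317, 2685 and 3084 in opi10+. It was lowest at 43C, with both strains alike (-1.48 ± 0.07, adjusted p = 1.82e-05), and at 1 h and 3 h still lay -0.47 and -0.25 from its start. The 3 h call for nda3 was lost without any 1 of the 8 arrays (adjusted p from 0.0609 to 0.136). The other alpha-tubulin gene atb2 is outside the name rule, with signals of 1718, 759, 924 and 788 in opi10- and 1417, 807, 948 and 888 in opi10+ and a change of -0.89 at 3 h.

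The folding cofactors, which assemble alpha and beta tubulin into dimers, each took their own course. The cofactor D gene alp1 (SPBC11C11.04C) had signals of 827, 351, 1090 and 527 in opi10- and 847, 441, 1119 and 584 in opi10+. In both strains it was lowest at 43C (-1.06 ± 0.10), highest at 1 h (0.39, lost without the opi10+ array before heat or either 1 h array, adjusted p from 0.0554 to 0.124) and low again at 3 h (-0.58 ± 0.10). The cofactor E gene alp21 (SPAC22H10.10) had 592, 321, 711 and 858 in opi10- and 723, 235, 659.8 and 928 in opi10+. It too was lowest at 43C (-1.20 ± 0.16). The cofactor B gene alp11 (SPAC13D6.05) had 1393, 1752, 769 and 1118 in opi10- and 1226, 1755, 749 and 1160 in opi10+. Here 43C was the highest array of each strain (0.42, -0.22 and not called as deposited) and 1 h the lowest (-0.77 ± 0.09).

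The cofactor A gene alp31 (SPAC8E11.07C) had signals of 527, 386, 275 and 296 in opi10- and 448, 399, 290.4 and 242 in opi10+. All 6 later arrays were below both arrays before heat, and it fell at 1 h (-0.75 ± 0.11) and 3 h (-0.82 ± 0.11). For the small GTPase gene alp41 (SPAC22F3.05C) they were 32.7, 122, 37.9 and 59.7 in opi10- and 36.3, 99.5, 26.3 and 52.5 in opi10+. Both 43C arrays were highest, at 1.32 ± 0.12 (adjusted p = 0.000126), and on 4 of the 8 arrays it was under 50. Its call at 3 h (0.51) was not made without the opi10- array before heat or either 3 h array (adjusted p from 0.0741 to 0.0814).

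Of the 5 genes known for other work, alp13 (SPAC23H4.12) had signals of 838, 292, 674 and 629.8 in opi10- and 773, 319, 587 and 684 in opi10+. Each strain's 43C array was its lowest (-1.35 ± 0.11, adjusted p = 7.97e-05). The gene mis3 (SPBC25B2.05) had 1902, 1932, 1592 and 643 in opi10- and 1467, 1657, 1613 and 799 in opi10+. Both 3 h arrays were far below the 6 others (-1.20 ± 0.16, adjusted p = 0.00386), the largest fall of the 84 genes at 3 h. For spc3 (SPAC56F8.11) the signals were 891, 1307, 802 and 772 in opi10- and 804, 1193, 776 and 764 in opi10+. It rose at 43C (0.55, -0.23 and not called as deposited). The genes alp5 and spc2 were -0.38 and -0.47 at 43C, both falls, the second lost without the opi10- array at 43C (adjusted p = 0.0559).

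Among called genes the strains followed nearly the same course. All of the 60, 49 and 39 genes called at 43C, 1 h and 3 h had the same sign in both strains. Over these called genes the median size of the difference between the strains' changes was 0.18 log2 in each of the 3 comparisons. The largest such differences were 0.71 at 43C, 0.54 at 1 h and 0.68 at 3 h. The test itself favours the shared signs and a small median, since a gene whose strains differ in response is less likely to be called. For opi10- against opi10+ over all 4 conditions limma called 0 of the 84 genes, as it called 0% of all 2892. At an unadjusted p under 0.05 there were 9 of the 84, or 10.7%, against 11% of all genes, and the smallest adjusted p among members was 0.362. Within a condition 1 array stands against 1 array, so the following differences are values without a test.

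At 43C 1 gene differed by at least 2-fold, against 0.104% of all genes that were as much higher in opi10-. This was fta6, with signals of 134 in opi10- and 48.7 in opi10+, a difference of 1.22. The difference was under 2-fold on the deposited scale (0.87), with median centring (0.80) and with 64 added to each signal (0.82), and larger with 1 added (1.45). It was 104 in opi10- and 118 in opi10+ before heat. The next differences at 43C were those of fta2 (0.65), dad3 (0.61) and fta7 (0.44) above and of cut2 and mis4 (both -0.46), alp1 (-0.31) and sim4 (-0.30) below. No member was 2-fold lower there (0.346% of all genes), and at the other conditions no member reached 2-fold. The shares of all genes that were as much higher and lower in opi10- were 0.104% and 0.45% before heat, 0.0692% and 0.0346% at 1 h and 0.484% and 0.104% at 3 h. Before heat the outermost were apc15 (0.59, with signals of 22 in opi10- and 9.30 in opi10+) and mal2 (-0.50, with 556 in opi10- and 792 in opi10+). Next came cnp1 (0.40), mis3 (0.37) and alp14 (0.30) above and spc34 (-0.38), dad1 (-0.36) and alp16 (-0.28) below.

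At 1 h the largest differences were those of apc10 (0.61, 303 in opi10- and 193 in opi10+) and apc15 (-0.89, 1.33 in opi10- and 16.2 in opi10+). The second rests on dim signals. Within them lay mis13 (0.39), fta2 (0.38) and spc24 (0.37) above and sim4 (-0.48), klp8 (-0.30) and duo1 (-0.27) below. At 3 h 5 of the 84 differed by at least 0.5 either way, against 3.73% of all genes. Of the members 1 did so before heat (4.32% of all genes), 3 at 43C (4.29%) and 2 at 1 h (2.07%). The 5 at 3 h were all higher in opi10-, but shares of all genes by direction are not given at this bound. At 2-fold more of all genes were higher than lower in opi10- at 3 h (0.484% and 0.104%). For klp8 the 3 h signals were 443 in opi10- and 270.2 in opi10+, for slp1 657 in opi10- and 404 in opi10+ and for spc24 152 in opi10- and 98.7 in opi10+, differences of 0.68, 0.68 and 0.55. Beside them were fta6 (0.52) and psm3 (0.51). The largest falls of the members at 1 h were those of slp1, klp8, nda2 and spc24 (-1.51, -1.48, -1.26 and -1.09). At 3 h the opi10- arrays of slp1, klp8 and spc24 were nearer to the level before heat than the opi10+ arrays. For nda2 the strain difference was 0.24 at 3 h and 0.25 before heat. This was seen after the values were known and was not tested. At the low end stood fta3 (-0.48, 1415 in opi10- and 1987 in opi10+), sim4 (-0.33, 228 in opi10- and 291 in opi10+), mis3 (-0.31) and fta1 (-0.27).

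**Figure D4:**
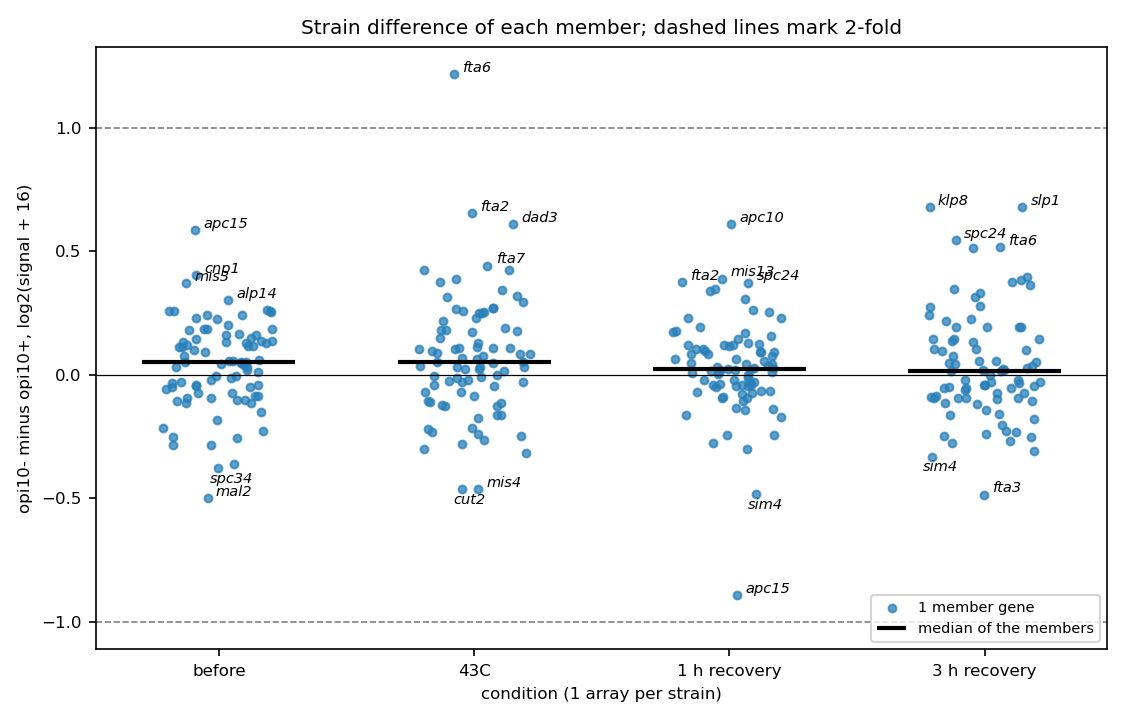
Each point is 1 of the 84 genes in 1 condition (x axis), with opi10- minus opi10+ in log2(signal + 16) from 1 array per strain (y axis). Bars are medians over the 84 genes and dashed lines mark 2-fold. Only fta6 at 43C lies beyond 2-fold, and at 3 h klp8, slp1 and spc24 lie highest.

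Genes of nearby processes, taken from lists written with earlier results of these data known, showed where the 84 stood. Of 43 segregation genes outside the name rule 13 rose and 17 fell at 43C, of 39 genes of the cytokinetic ring and septum 10 rose and 21 fell, of 45 DNA replication genes 9 and 22, and of 14 genes of mitotic entry 6 and 3. Their median changes were 0.08, -0.37, -0.23 and 0.19, against -0.14 over the 84 members and -0.06 over all genes. At 1 h 3 of the ring and septum genes were higher and 20 lower, and at 3 h 2 and 7. Of all genes 32.8% rose and 39.8% fell at 43C. For all genes the shares higher and lower were 25.5% and 27.2% at 1 h and 19.6% and 22.2% at 3 h. The difference between these lists and the members was not tested.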

How the data were processed

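RNA of 8 fission yeast samples was read on Affymetrix yeast arrays, 1 for each of 2 strains and 4 conditions. The authors deposited intensity values on a linear scale for 10928 probe sets. Their probe summary and any scaling between arrays are unknown here: not given in the sources used. Of these, 2914 probe sets (2896 genes) were S. pombe's by Entrez identifier, and the brightest stood for its gene. Genes whose mean exceeded the 75th percentile of 2593 S. cerevisiae probe sets, a signal of 5.72, were tested. Values were quantile normalized over S. pombe probe sets and transformed as log2(value + 16), which understates changes of dim genes. Limma 3.58.1 in R 4.3.3 (lmFit, eBayes; terms for condition and strain, 3 residual degrees of freedom) was run on 2892 genes, with Benjamini-Hochberg adjustment within each contrast. The fit was first tested on simulated data. The number of arrays limits the precision.

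The members and the lists were chosen with earlier results of these data known. Signals on each array are given for the members with the 8 largest called rises and falls in each contrast, the 3 largest changes of each role, and the 4 highest and lowest strain differences; other genes were named after their values were seen. Alternatives were the deposited scale, median centring, pseudocounts of 1 and 64, other filters, all probe sets of a gene, no strain term, an intensity trend with robust moderation, and leaving out each array. No sequences are shown, and promoters were not searched.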

Additional observations from a re-analysis of the deposited data

Results flagged for a closer look

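The small subunit gene apc15 of the anaphase-promoting complex was the 1 member whose strains moved in opposite directions by at least 1.25-fold each against before heat, on signals with 16 added. At 1 h of recovery its change was -1.13 in opi10- and 0.35 in opi10+. Its signals were 22, 7.12, 1.33 and 28.7 in opi10- and 9.30, 10.8, 16.2 and 18 in opi10+, under 50 on all 8 arrays, and it was not called in any condition. The difference between the strains was not tested. The gene fta6 at 43C came just short of that bound through the added 16, at 0.32 in opi10- and -1.05 in opi10+, with signals of 104, 134, 131 and 295 in opi10- and 118, 48.7, 119 and 201 in opi10+.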

How the results depend on the processing

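Of the calls at 43C, 1 h and 3 h, 42 of 60, 36 of 49 and 26 of 39 were also made in the same direction on the deposited scale. At 43C the lower median of all genes on that scale favours agreement for falls and works against it for rises. On the deposited scale the members higher and lower at 43C numbered 7 and 67, those lower at 1 h 17, those higher and lower at 3 h 35 and 7, those higher and lower in the first hour after 43C 72 and 3, and those lower from 1 h to 3 h 6. No gene then differed 2-fold between the strains at 43C. At 43C 26 genes took the opposite sign on that scale, namely dad1 (-0.66), mis3 (-0.55), alp11 (-0.22), cut14 (-0.72), spc3 (-0.23), alp16 (-0.51), bub1 (-0.39), psm3 (-0.0931), mis12 (-0.77), spc7 (-1.14), sim4 (-0.56), spc25 (-0.18), bub3 (-1.28), nuf2 (-0.51), mis17 (-1.09), cut4 (-1.13), mad1 (-1.0003), cut12 (-0.0938), klp8 (-1.11), klp2 (-0.72), apc14 (-0.84), dad2 (-0.58), dad3 (-0.92), alp7 (-1.08), mis6 (-0.22) and mis18 (-0.64). So did mis18 at 1 h (0.0244) and mad1 (0.012), cut12 (0.30), klp2 (0.037) and dad2 (0.35) at 3 h. The median of all genes moved by -0.91 at 43C on that scale. With median centring 9 members were lower at 3 h and 9 from 1 h to 3 h, 0 differed 2-fold between the strains at 43C, and bub3 (-0.37), mad1 (-0.0932), apc13 (0.0344) and duo1 (0.39) took the opposite sign at 43C. The cause was not tested. For median centring, for calls shared by both scales and for fits without 1 array, matching counts over all genes are not given. Whether such changes in the counts are particular to the members is therefore not shown.

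With a pseudocount of 1, 1 gene differed 2-fold between the strains before heat and 1 at 1 h, and with 64, 0 did at 43C. Without 1 array at a time, where a lone array is assumed to vary like the others, the members called, higher and lower numbered 52 to 61, 22 to 25 and 29 to 36 at 43C, 21 to 47, 8 to 20 and 13 to 27 at 1 h, 14 to 38, 5 to 20 and 9 to 19 at 3 h, 42 to 62, 24 to 34 and 18 to 28 in the first hour after 43C, and 13 to 46, 8 to 27 and 5 to 20 from 1 h to 3 h. The lowest of these called counts came without the opi10- array at 1 h for 1 h against before (21), the opi10- array before heat for 3 h (14) and the opi10- array at 3 h for 3 h against 1 h (13). Leaving out the filter, raising it to the 95th percentile or using all probe sets of a gene changed no call among the 252 changes from before heat. A fit with no strain term lost 9 calls and made 2, and the trend with robust moderation lost 12 and made 2. The fit is paired by strain through its strain term, as no replicate numbers are shared within a strain and condition. Limits: 2 arrays per condition, 3 residual degrees of freedom, and 3 members (apc13, apc15 and duo1) under a signal of 50 on all arrays.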

Other observations

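At 3 h of recovery several genes outside the name rule differed between the strains by more than any member did. The septum glucanase gene eng1 had signals of 1166, 173, 209 and 657 in opi10- and 1097, 230.3, 180.5 and 216 in opi10+, a strain difference of 1.54 at 3 h. For adg1 they were 1636, 525, 1045 and 1520 in opi10- and 1674, 482, 1068 and 514 in opi10+, also 1.54. The ribonucleotide reductase gene cdc22 had 1297, 1802, 582 and 1086 in opi10- and 1242, 1752, 617 and 422 in opi10+, a difference of 1.33. In each of these 3 the 3 h array of opi10- was above that of opi10+, as it was for the members klp8, slp1 and spc24, while before heat the strains lay close together. These genes were picked after their values were seen, each difference is 1 array against 1 array, and none was tested.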
